A study of Homo sapiens with 19 samples.

Results

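Alpha-arrestins are adaptor proteins with an arrestin fold that carry PPxY motifs in their tails and bring ubiquitin ligases of the NEDD4 family to proteins of the cell surface, which are then taken up or degraded. ARRDC4 and TXNIP both restrain glucose uptake and are textbook targets of the glucose-sensing transcription factors MondoA and ChREBP with their partner MLX. TXNIP, the thioredoxin-interacting protein, also binds and inhibits thioredoxin. ARRDC3 promotes the uptake of beta-adrenergic receptors and of an integrin subunit, and it is known as a brake on the growth and spread of basal-like breast cancer cells.

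The transcripts of these 3 genes were followed by sequencing poly(A) RNA of MDA-MB-231, a human breast cancer line of the triple-negative kind that has long been kept in culture. Of 4 transcripts sought by their Ensembl IDs among 175775, 3 were listed: ENST00000268042 of ARRDC4 (version 6, 4072 bases), ENST00000265138 of ARRDC3 (version 3, 4188 bases) and ENST00000582401 of TXNIP (version 5, 2926 bases). ENST00000369317, a further TXNIP transcript sought, was not in the lists used here, so no sum over TXNIP transcripts was made. All 3 listed transcripts passed the filter on low counts in every fit. The set was chosen on measured values of ARRDC4, whose rise had stood out in earlier results of these libraries after STAT3 siRNA and after HMGN5 siRNA, and which had been followed there in the lentiviral comparisons too. ARRDC3 and TXNIP were added as relatives of ARRDC4. Values in those 4 comparisons are therefore given as a description, without a p-value. The number of members past the threshold stands there only beside the share of all transcripts past it. Other comparisons share libraries with those 4, which is said beside each.

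All cells received 30 nM of siRNA and were grown in L15, a medium that holds galactose in place of glucose, with fetal bovine serum. In the siRNA experiment, cells received control siRNA (NC, 4 libraries), HMGN5 siRNA (siHMGN5, 2 libraries) or STAT3 siRNA (siSTAT3, 2 libraries). STAT3 is a transcription factor activated by cytokine receptors, and HMGN5 is a protein that binds nucleosomes. The lentiviral experiment had control siRNA plus a control vector (NC_Vec, 3 libraries), STAT3 siRNA plus that vector (siSTAT3_Vec, 3 libraries) or STAT3 siRNA plus HMGN5 delivered by lentivirus (siSTAT3_HMGN5, 3 libraries). Every group is of this 1 cell line, and separate cultures are not named in the labels. A p-value here is therefore set against the spread of these libraries alone, which may be technical. In bulk RNA, a few cells with much more of a transcript and all cells with somewhat more cannot be told apart. A library held 19114033 to 19509422 estimated reads in the siRNA experiment and 22500086 to 23047081 in the lentiviral one. Transcript IDs were not paired with genes in the files, so the depletion of STAT3 and HMGN5, the breast cancer markers of the line and the other genes of the glucose-sensing pathway were not checked here.

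The NC libraries fell into 2 pairs, and the members differed between them in the same direction. ARRDC4, ARRDC3 and TXNIP were 2.48-fold, 1.99-fold and 1.83-fold higher on average in NC replicates 1 and 2 than in NC replicates 3 and 4. Differences from NC are therefore given with all 4 libraries and against each pair.

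The 250 bases before the first listed RefSeq start of each gene are shown (GRCh38.p14), read in the direction of transcription. Capitals mark an E-box (CACGTG), a pair of CACGNG with 5 bases between them, and each CCAAT box on either strand.
ARRDC4, chr15:97960453-97960702, plus strand: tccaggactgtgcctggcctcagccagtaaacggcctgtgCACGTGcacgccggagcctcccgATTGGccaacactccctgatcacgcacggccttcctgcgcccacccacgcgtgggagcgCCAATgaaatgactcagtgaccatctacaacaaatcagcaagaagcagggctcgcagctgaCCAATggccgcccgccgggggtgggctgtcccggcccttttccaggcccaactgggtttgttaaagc
TXNIP, chr1:145996580-145996829, minus strand: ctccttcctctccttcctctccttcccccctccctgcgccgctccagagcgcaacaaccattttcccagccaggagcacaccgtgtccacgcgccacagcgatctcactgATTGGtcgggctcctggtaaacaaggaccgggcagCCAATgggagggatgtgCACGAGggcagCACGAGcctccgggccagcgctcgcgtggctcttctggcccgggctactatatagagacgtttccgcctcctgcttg
ARRDC3, chr5:91383318-91383567, minus strand: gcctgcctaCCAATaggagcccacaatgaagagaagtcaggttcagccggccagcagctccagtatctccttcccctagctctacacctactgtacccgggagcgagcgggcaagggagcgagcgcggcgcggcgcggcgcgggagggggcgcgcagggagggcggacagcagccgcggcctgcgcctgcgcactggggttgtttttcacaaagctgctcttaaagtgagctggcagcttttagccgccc

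The ARRDC4 window held 1 CACGTG, from 210 to 205 bases before the start, and 3 CCAAT boxes. The TXNIP window held no CACGTG but 1 pair of CACGNG, from 88 to 72 bases before the start, and 2 CCAAT boxes. The ARRDC3 window held 1 CCAAT box and neither kind of E-box. Over 35116 RefSeq windows of the same length, CACGTG was present in 6.345%, the pair of CACGNG in 0.046% and a CCAAT box in 32.008%. A STAT-type motif, TTCNNNGAA, was in none of these windows and in 6.567% of all. A pair of CANNTG 5 bases apart, at least 1 of them CACGTG, was also in none of the 3 and in 0.063% of all. CACGTG and the pair of CANNTG are cases of the general E-box, so their matches can overlap. The pair of CACGNG and the CCAAT box were picked after the windows had been read. ARRDC3 and TXNIP each have a further listed start, not shown, whose window held no match to any of these motifs. Which start the counted transcripts came from was not tested. A match describes letters, and no binding was measured.

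**Figure D1:**
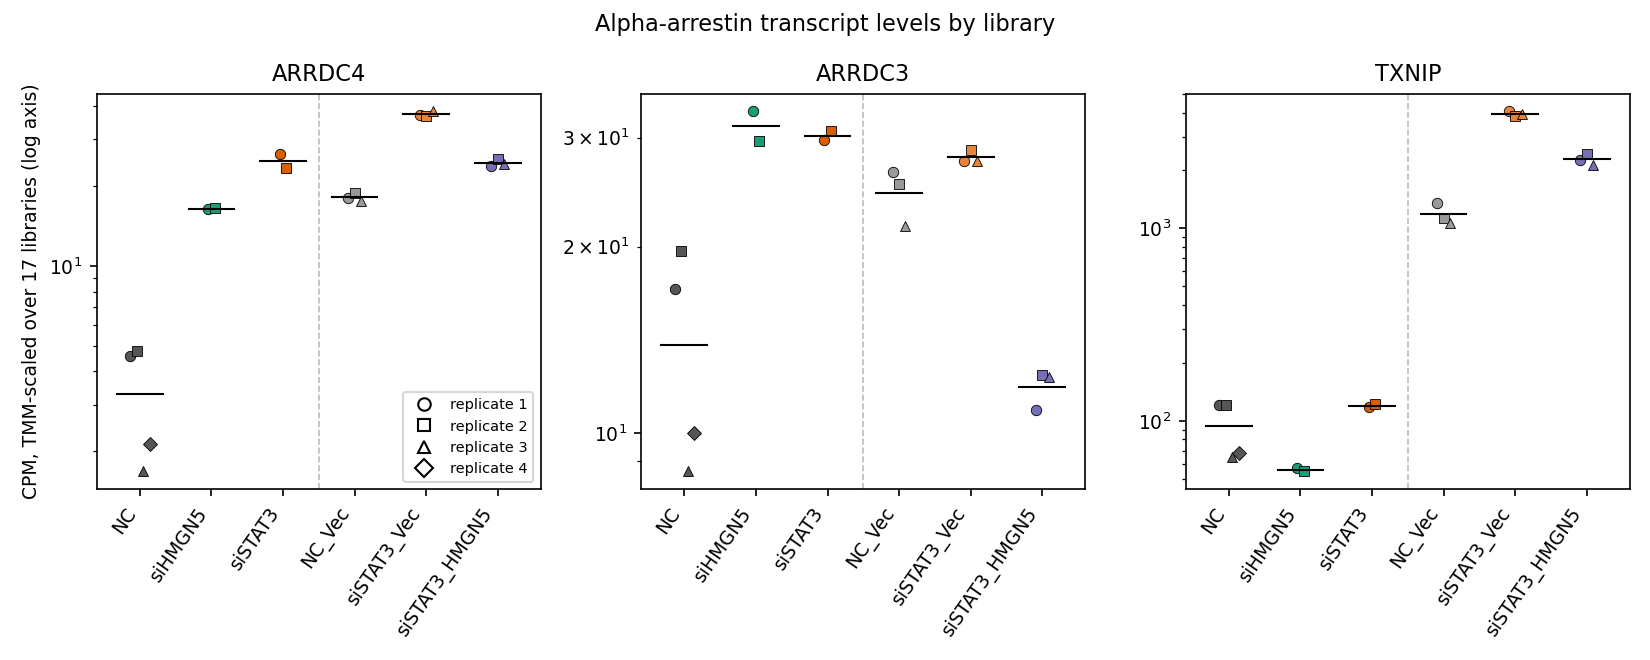
Level of each transcript in every library (CPM, scaled by TMM over all 17 libraries, log axis), with 1 marker per library by replicate number and a line at the group mean. TXNIP lies between 3819 and 4049 CPM in siSTAT3_Vec against 54.7 to 56.6 CPM in siHMGN5, and ARRDC4 is lowest in NC.

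ARRDC4 was the member that differed most from NC after either knockdown. In NC replicates 1 to 4 it had 92, 93, 32 and 41 estimated reads, or 4.68, 4.85, 1.69 and 2.15 CPM (counts relative to library size, scaled within the experiment). In siSTAT3 it lay at 27.1 and 24.0 CPM, from 509 and 449 reads. In siHMGN5 it lay at 16.96 and 16.92 CPM, from 337 and 329 reads. Both knockdown groups were above every NC library without overlap. How many of all transcripts were likewise without overlap was not counted, here or in the comparisons below, so nothing is read from a lack of overlap. ARRDC4 reads were whole numbers in all 17 libraries, so they were not divided with another transcript.

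The ARRDC4 log2 fold change was 2.93 ± 0.43 (SE) for siSTAT3 over NC, a 7.63-fold difference. For siHMGN5 over NC the ARRDC4 log2 fold change was 2.34 ± 0.43, a 5.06-fold difference. Against NC replicates 1 and 2 alone, the ARRDC4 values were 2.42 and 1.83, and against NC replicates 3 and 4 alone they were 3.71 and 3.14. Both comparisons use the same NC libraries, so the values stand side by side and are not independent of each other.

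ARRDC3 lay at 17.4, 20.0, 8.70 and 10.1 CPM in NC replicates 1 to 4. It reached 30.5 and 31.5 CPM in siSTAT3 and 34.2 and 30.4 CPM in siHMGN5. Again no knockdown library overlapped with NC. The ARRDC3 log2 fold change was 1.14 ± 0.34 (SE) for siSTAT3 and 1.20 ± 0.34 for siHMGN5. Against NC replicates 1 and 2 alone, the ARRDC3 values were 0.73 and 0.79, so the higher NC pair left less than a doubling. Against NC replicates 3 and 4 alone they were 1.71 and 1.78. ARRDC3 reads were not whole, and neither were TXNIP reads, so part of both was assigned by the quantification model. The ARRDC3 locus also shares 2971 bases with the antisense gene ARRDC3-AS1, and reads of the 2 genes there cannot be told apart where strand was not used.

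TXNIP levels in the siRNA experiment overlapped with NC in 1 knockdown group and were lower in the other. The transcript lay at 122.3, 123.0, 65.4 and 68.9 CPM in NC replicates 1 to 4. In siSTAT3 it lay at 121 and 125 CPM, beside the upper NC pair and above the lower one. In siHMGN5 it lay at 58.5 and 56.2 CPM, below all 4 NC libraries. The TXNIP log2 fold change was 0.37 ± 0.29 (SE) for siSTAT3 over NC, with a 95% interval of -0.32 to 1.07. Against NC replicates 1 and 2 alone the TXNIP value for siSTAT3 was 0.0013, and against NC replicates 3 and 4 alone it was 0.85. For siHMGN5 over NC the TXNIP log2 fold change was -0.73 ± 0.31 (95% interval -1.46 to 0.0022), or -1.10 and -0.23 against the 2 NC pairs in the same order.

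Of the 3 transcripts, 1 (ARRDC4) passed the test in siSTAT3 against NC, where 4.28% of 74346 transcripts did (edgeR quasi-likelihood test, Benjamini-Hochberg adjusted over all transcripts, threshold 0.05). In siHMGN5 against NC 1 of 3 passed, again ARRDC4, beside 3.39% of all. The ARRDC4 call in siSTAT3 ended without siSTAT3 replicate 1 or 2 (log2 fold change 2.84 and 3.01), and the call in siHMGN5 ended without any 1 of the 8 libraries (2.11 to 2.57), without a low-count filter (2.33) and with NC and siHMGN5 fitted alone (2.34). ARRDC3 was past the threshold in both knockdowns against either NC pair alone and with DESeq2. TXNIP was past it in siSTAT3 against NC replicates 3 and 4 alone. In siHMGN5 it was past it against NC replicates 1 and 2 alone and with a replicate block, which rests on that same NC pair. These comparisons chose the members, so nothing is read from the counts or from their changes. In the later count of unchanged values these changed calls do not show, since only the size of the difference was judged there. It was judged by the combined SD of both groups, which holds the gap between the NC pairs. For TXNIP in siSTAT3 that SD was 0.50, above the log2 fold change of 0.37. Its values of 0.0013 and 0.85 against the NC pairs thus counted as unchanged. For comparisons with NC nothing is read from that count. Short transcripts (under 300 bases) took 1.15% to 1.70% of the reads over the 8 libraries, a share that also differed between groups, and its part in the differences was not tested.

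**Figure D2:**
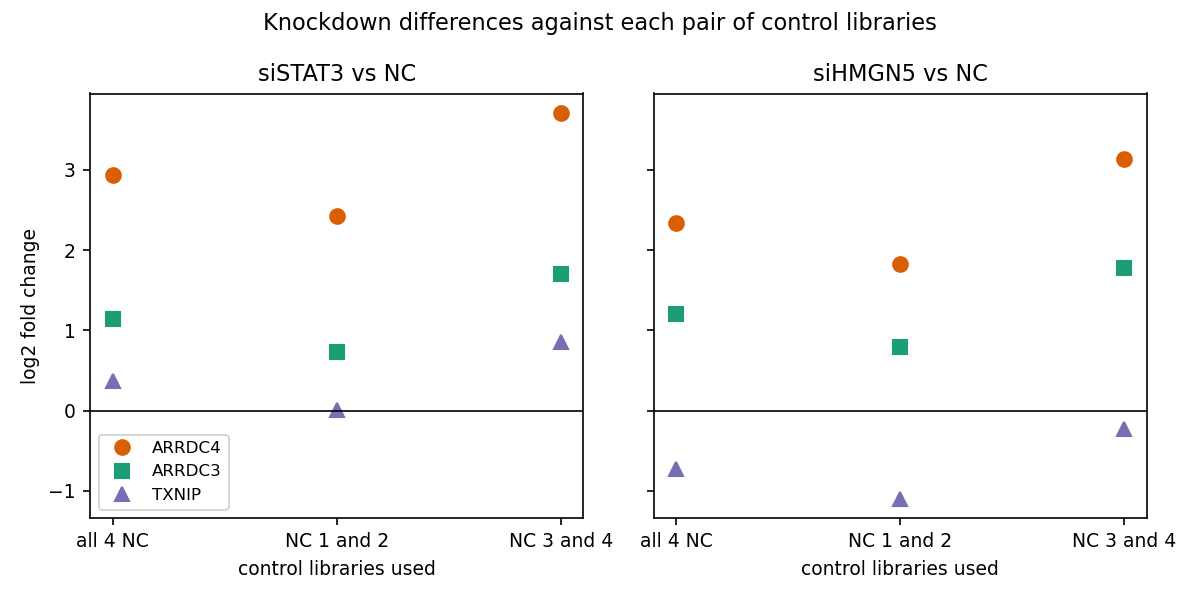
Log2 fold change of each transcript in siSTAT3 (left) and siHMGN5 (right) over all 4 NC libraries, over NC replicates 1 and 2, and over NC replicates 3 and 4. ARRDC4 and ARRDC3 are above 0 against either pair, and TXNIP moves from 0.0013 to 0.85 in siSTAT3.

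The 2 knockdowns were then set against each other. This comparison is the difference of siSTAT3 against NC and siHMGN5 against NC, both used for the choice. Its values are therefore a description too, without a p-value. TXNIP was 2.14-fold higher in siSTAT3 than in siHMGN5, without overlap of libraries, and the log2 fold change was 1.10 ± 0.35 SE (95% interval 0.27 to 1.92). It did not pass the threshold over all transcripts (edgeR quasi-likelihood test, Benjamini-Hochberg adjusted), where the spread takes in the gap between the NC pairs. With only these 2 groups in the fit, with DESeq2 or with a replicate block it did pass, and nothing is read from these calls. ARRDC4 was 1.51-fold higher in siSTAT3, with a log2 fold change of 0.59 ± 0.52 (95% interval -0.64 to 1.82). ARRDC3 had a log2 fold change of -0.06 ± 0.40 (95% interval -1.02 to 0.90), with overlapping libraries. In this comparison 0 of 3 transcripts passed in edgeR, beside 3.89% of all. DESeq2 called 1 of the 3, TXNIP, beside 10178 of 74346 transcripts. Before adjustment 1 of the 3, TXNIP again, was under 0.05 in edgeR. The share of all transcripts under 0.05 before adjustment was not counted, so nothing is read from that.

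In the lentiviral experiment all 3 transcripts were measured with little spread inside groups. TXNIP lay at 1332, 1116 and 1053 CPM in NC_Vec replicates 1 to 3. With STAT3 siRNA and the control vector, siSTAT3_Vec, it reached 4007, 3771 and 3909 CPM. The lowest of the siSTAT3_Vec libraries was well above the highest of NC_Vec. The TXNIP log2 fold change was 1.74 ± 0.09 (SE), or 3.34-fold. In siSTAT3_Vec, TXNIP alone took 0.37643% to 0.40011% of all estimated reads and ranked between 7 and 9 among all transcripts by reads.

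ARRDC4 lay at 17.8, 18.6 and 17.4 CPM in NC_Vec and at 36.8, 36.3 and 37.8 CPM in siSTAT3_Vec. The groups did not overlap, and the ARRDC4 log2 fold change was 1.04 ± 0.06 (SE), or 2.06-fold. ARRDC3 lay at 26.1, 24.98 and 21.4 CPM in NC_Vec and at 27.2, 28.3 and 27.2 CPM in siSTAT3_Vec. Its libraries did not overlap either, but the ARRDC3 log2 fold change was only 0.19 ± 0.09, with a 95% interval of -0.03 to 0.41. Of the 3 transcripts 2 passed the test, beside 14.3% of 69768, and nothing is read from that count because the comparison was used for the choice.

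Ectopic HMGN5 in the STAT3-depleted cells went with lower levels of all 3 transcripts. TXNIP lay at 2233, 2428 and 2116 CPM in siSTAT3_HMGN5, below each siSTAT3_Vec library, with a log2 fold change of -0.79 ± 0.09 (SE) against siSTAT3_Vec. ARRDC4 lay at 23.5, 25.1 and 23.9 CPM, with a log2 fold change of -0.61 ± 0.06. ARRDC3 lay at 10.8, 12.3 and 12.2 CPM, with a log2 fold change of -1.23 ± 0.10, the greatest of the 3. The siSTAT3_HMGN5 libraries did not overlap with siSTAT3_Vec for any of the transcripts, and the share of all transcripts without overlap was not counted. All 3 passed the test, beside 3.77% of all transcripts. The comparison had been used for the choice through ARRDC4, so nothing is read from the count.

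**Figure D3:**
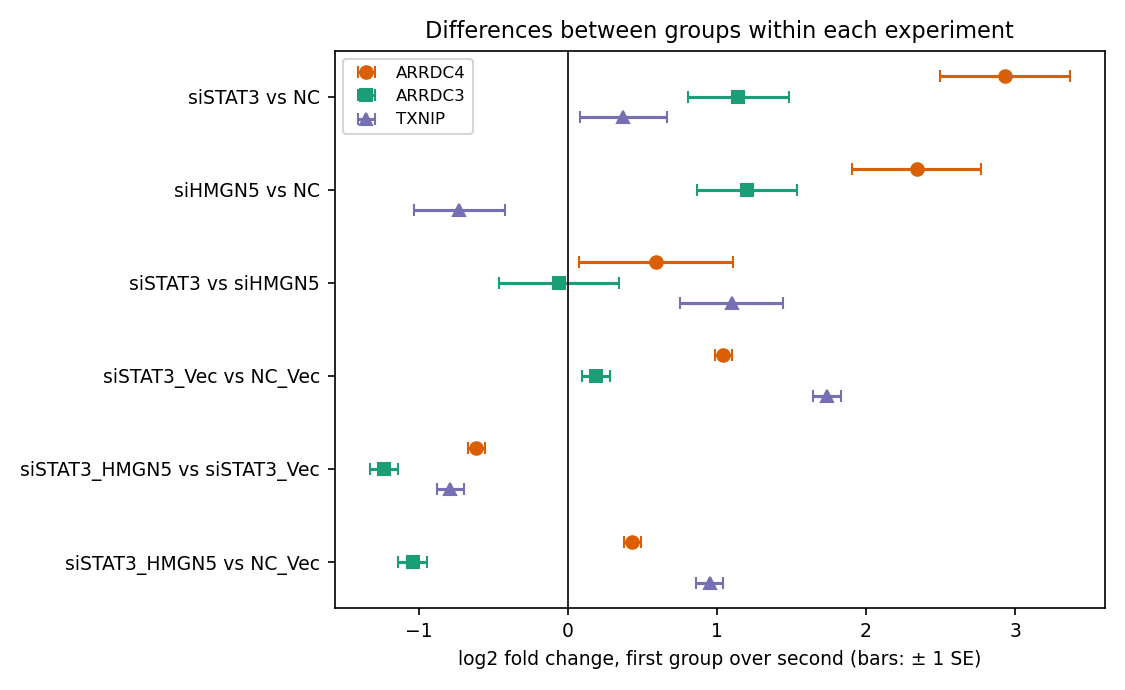
Log2 fold change of the 3 transcripts in 6 comparisons within the experiments, with bars of 1 SE. The bars are wide in the siRNA experiment (ARRDC4 2.93 ± 0.43 in siSTAT3 vs NC) and narrow in the lentiviral one (1.04 ± 0.06 in siSTAT3_Vec vs NC_Vec), and with HMGN5 all 3 transcripts lie below 0 against siSTAT3_Vec.

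Levels in siSTAT3_HMGN5 were then set against those of the control cells, NC_Vec. This difference is the sum of siSTAT3_Vec against NC_Vec and siSTAT3_HMGN5 against siSTAT3_Vec, both used for the choice. Its values are therefore a description too, without a p-value. All 3 transcripts passed the threshold (edgeR quasi-likelihood test, Benjamini-Hochberg adjusted), beside 22.3% of all transcripts, and nothing is read from that count. TXNIP remained above NC_Vec by 1.94-fold (log2 fold change 0.95 ± 0.09 SE). ARRDC4 also remained above NC_Vec, by 1.35-fold (log2 fold change 0.43 ± 0.06). ARRDC3 was below NC_Vec, by 2.06-fold (log2 fold change -1.04 ± 0.10). In all 3 cases each siSTAT3_HMGN5 library lay on the same side of every NC_Vec library, a separation not counted over all transcripts. Expressed as a share of the CPM gap between siSTAT3_Vec and NC_Vec, the siSTAT3_HMGN5 libraries kept 40.0% ± 5.76 (SD, n = 3) for TXNIP and 32.8% ± 4.39 (SD, n = 3) for ARRDC4. For ARRDC3 such a share has no use. Its gap between siSTAT3_Vec and NC_Vec was small (log2 fold change 0.19, interval -0.03 to 0.41), and siSTAT3_HMGN5 lay below NC_Vec. No group received HMGN5 without STAT3 siRNA, so the effect of HMGN5 by itself was not tested. All 3 calls held under the 16 alternatives tried, and nothing is read from them either.

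Next, the STAT3 siRNA difference was compared between the experiments in 1 fit of all 17 libraries. This contrast is made of 2 comparisons that chose the members, ARRDC4 among them for its rise over NC, so its values are a description too. For ARRDC4 the log2 fold change was larger in the siRNA experiment, by 1.87 ± 0.43 (SE). For TXNIP it was larger in the lentiviral experiment, with a difference of -1.39 ± 0.31. For ARRDC3 the difference was 0.93 ± 0.35 (95% interval 0.17 to 1.69). The threshold was passed by 2 of 3 transcripts, ARRDC4 and TXNIP, beside 5.51% of 86839, and nothing is read from that count. The values depended on the NC pair. With NC replicates 1 and 2 alone they were 1.36 for ARRDC4 and -1.75 for TXNIP, and with NC replicates 3 and 4 alone 2.66 and -0.90. ARRDC4 no longer passed the threshold without siSTAT3 replicate 1 (1.77), without siSTAT3 replicate 2 (1.95) or without any 1 siSTAT3_Vec library (1.85 to 1.88). TXNIP no longer passed it without siSTAT3 replicate 1 or 2 (-1.37 and -1.41). Infection, read depth and experiment changed together and cannot be told apart.

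Control cells of the 2 experiments already differed in all 3 transcripts. Infection, read depth and experiment changed together between these controls and cannot be told apart. A p-value here is set against the spread inside groups and does not measure the spread between experiments. The NC and NC_Vec libraries also entered comparisons that chose the members, and ARRDC4 was chosen for its rise over these NC libraries, so its value is given without a p-value and the other tests are not independent of the choice. On counts scaled over all 17 libraries, TXNIP had a mean of 93.7 ± 31.2 CPM over the 4 NC libraries (SD) and of 1180 ± 149 CPM over the 3 NC_Vec libraries (SD). This 12.6-fold difference (log2 fold change 3.65 ± 0.21, SE, adjusted p = 2.39e-07, edgeR quasi-likelihood test) was larger than the TXNIP difference in each of the 6 comparisons within the experiments. ARRDC4 averaged 3.30 ± 1.62 CPM in NC and 18.1 ± 0.647 CPM in NC_Vec, a 5.49-fold difference (log2 fold change 2.46 ± 0.28). ARRDC3 averaged 13.9 ± 5.37 CPM in NC and 24.4 ± 2.52 CPM in NC_Vec, with a log2 fold change of 0.82 ± 0.23 (adjusted p = 0.031). NC_Vec and NC libraries did not overlap for any of the 3, and the share of all transcripts without overlap was not counted. Against NC replicates 1 and 2 alone the log2 fold change was 3.29 for TXNIP, 1.95 for ARRDC4 and 0.41 for ARRDC3. Against NC replicates 3 and 4 alone it was 4.14 for TXNIP, 3.24 for ARRDC4 and 1.39 for ARRDC3. All 3 were past the threshold, beside 12.5% of transcripts. The ARRDC3 call ended in several alternatives, among them leaving out NC replicate 3 or 4 (0.65 and 0.67, adjusted p = 0.0508 and 0.0898) and leaving out NC_Vec replicate 1, 2 or 3 (0.74 to 0.88, adjusted p of 0.0536 to 0.118).

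On that scale, ARRDC4 was highest in siSTAT3_Vec (37.4 ± 0.751 CPM, SD, n = 3), followed by siSTAT3 (24.9 ± 2.11 CPM, n = 2) and siSTAT3_HMGN5 (24.4 ± 0.807 CPM, n = 3), whose libraries overlapped. Below these came NC_Vec and then siHMGN5 at 16.4 ± 0.0567 CPM (SD, n = 2), and NC was lowest. The order for ARRDC3 began with siHMGN5 (31.3 ± 2.46 CPM, n = 2) and siSTAT3 (30.2 ± 0.663 CPM, n = 2), which overlapped, and went on with siSTAT3_Vec and NC_Vec. It ended with NC and siSTAT3_HMGN5 (11.9 ± 0.845 CPM, n = 3), which overlapped. For TXNIP the 3 lentiviral groups stood above the 3 groups of the siRNA experiment, and siSTAT3 (120 ± 2.72 CPM, n = 2) overlapped with NC. The highest group mean was 70.8 times the lowest for TXNIP, 11.3 times for ARRDC4 and 2.64 times for ARRDC3.

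**Figure D4:**
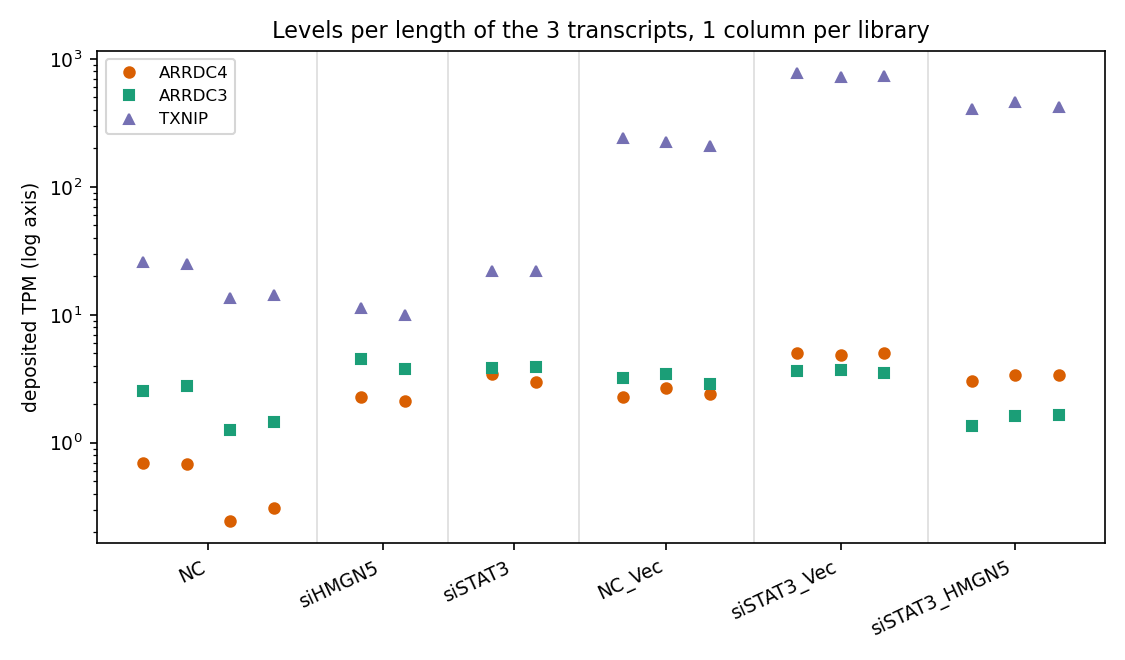
Deposited TPM (a level per length, scaled to the same total in each library, log axis) of the 3 transcripts, with 1 column of markers per library. TXNIP is the highest in all 17 libraries, and ARRDC4 lies below ARRDC3 in NC and above it in siSTAT3_Vec and siSTAT3_HMGN5.

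Levels per length, which allow the transcripts to be compared with each other, were read from the deposited TPM values. TXNIP was the highest of the 3 in every library, but by very unequal margins. In siHMGN5 the TXNIP level was 4.74 and 4.94 times the ARRDC4 level, in siSTAT3 6.37 and 7.41 times. The same ratio was 36.2 to 55.3 in NC, 83.5 to 105 in NC_Vec, 147 to 154 in siSTAT3_Vec and 125 to 136 in siSTAT3_HMGN5. The ratio of TXNIP to ARRDC4 was below the NC range in both knockdowns and above it in the lentiviral groups. ARRDC4 was chosen for its rise over NC after both knockdowns, so lower ratios to it there come with that choice. TXNIP itself averaged 19.6 TPM in NC, 21.9 TPM in siSTAT3 and 10.6 TPM in siHMGN5. Ratios of other transcripts were not counted, so nothing is read from this separation. ARRDC3 was 3.65 to 5.09 times ARRDC4 in NC by TPM, near it in siSTAT3 (1.11 and 1.30 times), and below it in siSTAT3_HMGN5 (0.446 to 0.492 times).

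The transcripts whose level over the 17 libraries was most like that of ARRDC4 were looked for by the Pearson correlation of log2(CPM + 0.5), among 39418 others with a mean of at least 2 CPM. The groups and the 2 experiments are shared by all points, so the correlations are a description. The highest were ENST00000397440.8 (r = 0.957) and ENST00000528575.1 (r = 0.957), and the lowest were ENST00000361070.8 (r = -0.971) and ENST00000262293.8 (r = -0.967). By Spearman correlation the first pair ranked 276 (0.831) and 44 (0.887), so they did not hold the highest places under that measure. No gene was paired with these IDs. ENST00000397440.8 averaged 18.96 CPM in NC, 40.6 in siHMGN5, 42.0 in siSTAT3, 35.9 in NC_Vec, 51.6 in siSTAT3_Vec and 55.7 in siSTAT3_HMGN5. TXNIP correlated with ARRDC4 at r = 0.681 (rank 1984, or 595 by Spearman correlation) and ARRDC3 at r = 0.582 (rank 4117, or 11126 by Spearman correlation).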

How the data were processed

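Poly(A) RNA of 17 libraries was analysed, and 2 H3K27ac profiles were not analysed here. Groups and replicate numbers come from the sample titles. Each deposited table gives, per the file headers, an estimated count of reads (an expected count, often fractional), a TPM value, and a length and effective length in bases for 175775 Ensembl transcripts. The submitters' processing notes name Salmon 1.4.0 and GRCh38. For the transcript release and model options, the sources used here give nothing. The authors' TPM values were used only to compare levels per length.

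Estimated counts were rounded and fitted over all transcripts with edgeR 4.0.16 (R 4.3.3; TMM, filterByExpr, glmQLFit, glmQLFTest, Benjamini-Hochberg threshold 0.05), with the 8 libraries of the siRNA experiment, the 9 of the lentiviral one, or all 17 in a fit. The procedure was tested on simulated libraries drawn independently of each other, without a gap between NC pairs. That test therefore cannot show how calls against NC behave with such a gap. A standard error is the log2 fold change over the square root of the test statistic. Intervals are 95%. CPM values use TMM within an experiment unless stated. A count of 3 reads was 0.133 to 0.158 CPM. Alternatives were DESeq2 1.42.0, limma-voom (3.58.1), other scalings, no filter, fewer groups or libraries, and a replicate block. The 3 members and the lists were chosen with earlier results of these data known. Named transcripts were the members and the 2 most and 2 least correlated with ARRDC4. Tests of the split between 2 TXNIP transcripts and of pathway lists were planned and not run, since 1 TXNIP transcript was listed and IDs were not paired with genes. Promoter sequences are RefSeq's, matched by symbol for 3 of 3 genes.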

Additional observations from a re-analysis of the deposited data

Results flagged for a closer look

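The STAT3 siRNA difference in ARRDC4 was 1.87 larger on the log2 scale in the siRNA experiment than in the lentiviral one, and both siSTAT3 and all 3 siSTAT3_Vec libraries were above their controls. For TXNIP the difference was -1.39, with all 3 siSTAT3_Vec libraries above every NC_Vec library and the siSTAT3 libraries within or above the NC range. Both stand here because they passed an interaction term in edgeR between the experiments. That contrast reuses the comparisons by which the members were chosen, among them the ARRDC4 rise over NC, so the values are a description and no p-value is given. The members' levels in NC replicates 1 and 2 against NC replicates 3 and 4 move with both values, which were 1.36 and -1.75 with the first pair and 2.66 and -0.90 with the second. For ARRDC3 the difference was 0.93, which did not pass. No NC library of any member stood far enough from the other 3 to be set apart.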

How the results depend on the processing

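Each of the 24 results (3 transcripts in 8 comparisons) was recomputed under 15 to 25 alternatives, 438 values in all. Direction held in all but 1: ARRDC3 in siSTAT3 against siHMGN5, a difference near 0, was 0.016 without siHMGN5 replicate 1. Counted as unchanged were 415 values, by call or, in comparisons that chose the members, by both groups' combined SD alone, whatever the call. Against NC this SD holds the NC pair gap, so switching pairs could hardly count. ARRDC4 in siHMGN5 against NC moved to 3.14 with NC replicates 3 and 4 only. TXNIP in siSTAT3 against siHMGN5 passed the test with DESeq2 (1.09), with both groups fitted alone (1.10) and with a replicate block (1.10). The difference of the STAT3 siRNA effect in ARRDC3 passed with NC replicates 3 and 4 only (1.505) and without NC replicate 2. Leaving out 1 library at a time, that difference ranged from 0.76 to 1.15 for ARRDC3, from 1.65 to 2.10 for ARRDC4 and from -1.53 to -1.24 for TXNIP. ARRDC3 in NC_Vec against NC lost its call without a low-count filter (0.81) and in 9 of 17 cases with 1 library left out, where it ranged from 0.65 to 1.04. The cause of these changes was not tested. Likeness to ARRDC4 by Spearman correlation was 0.831 for ENST00000397440.8, 0.797 for TXNIP and 0.37 for ARRDC3.

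Same-numbered libraries did not deviate together: correlations lay between -0.107 and 0.0498 in the lentiviral experiment and between 0.0022 and 0.0516 in the siRNA one, so the numbers were not taken as pairs. In the comparisons not used for the choice, the replicate block changed no call of the members other than that of TXNIP named above. No block was fitted for NC_Vec against NC, since nothing ties a number in one experiment to the same number in the other. NC replicates 3 and 4 share their numbers with no knockdown library, so the block took them out of the contrasts with NC. Its ARRDC4 values, 2.42 in siSTAT3 and 1.83 in siHMGN5, were those against NC replicates 1 and 2 alone. For contrasts with NC the block is thus no separate check of pairing. Among all transcripts, calls fell with the block from 3181 to 1622 in siSTAT3 against NC, from 2521 to 902 in siHMGN5 against NC, and from 2631 to 1156 in siSTAT3_HMGN5 against siSTAT3_Vec. DESeq2 gave more calls than edgeR, 10650, 9904, 10178, 16965, 8078, 11074 and 18602 against 3181, 2521, 2893, 9953, 2631, 4784 and 10883, for siSTAT3 and siHMGN5 against NC, siSTAT3 against siHMGN5, siSTAT3_Vec against NC_Vec, siSTAT3_HMGN5 against siSTAT3_Vec, the difference between experiments and NC_Vec against NC. Without a filter, 1638 (siHMGN5 against NC) and 1627 (siSTAT3_HMGN5 against siSTAT3_Vec) were called. With the 2 groups alone 1448 were called in siHMGN5 against NC, and with NC replicates 3 and 4 alone 6259, 6249 and 9318 in both knockdowns and the difference. Leaving out 1 library gave as few as 775, 551, 844, 1190 and 3061 calls in siSTAT3 against NC, siHMGN5 against NC, siSTAT3 against siHMGN5, siSTAT3_HMGN5 against siSTAT3_Vec and the difference. ARRDC4 had 92 and 93 reads in NC replicates 1 and 2, and 32 and 41 in replicates 3 and 4.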
